A study of Bos taurus with 34 samples.

Results

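Complement and coagulation are cascades of plasma proteins that the liver secretes in large amounts. Complement proteases cut one another until C3 marks a surface and the terminal components build a pore in it, while coagulation proteases end in thrombin, which turns fibrinogen into fibrin. Both cascades are held back by circulating inhibitors, and both belong to the proteins that hepatocytes are known to make more or less of in inflammation.

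The 41 genes described here were taken by symbol from the deposited comparison of slick with free cattle, which holds 14161 genes. They are 20 complement genes and 21 coagulation genes, and every one of them was found once in the table. SERPING1, which inhibits proteases of both systems, was counted with complement.

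The series holds bovine liver RNA from 34 samples in 2 experiments on the SLICK allele of PRLR, the prolactin receptor gene, known for a short coat and better control of body temperature in heat. In the TruSeq experiment, 10 daughters of the bulls Blanco (5) and Lone Ranger (5) carried 1 copy (SLICK). A further 8 daughters (FREE) had 0 copies, and Lone Ranger was the sire of 7 and Blanco of 1. The SMARTer experiment has 5 samples with 1 copy (S1) and 11 with 2 copies (S2). Labels give the breed of every sample as Senepol and give no age or treatment. Sire and genotype overlap in part, and their contributions cannot be told apart here. Library columns are headed by animal numbers that match no label, which left every library without a group, and S2 against S1 was not analysed here. Values of single animals are therefore not shown, and depth per sample was not used. All fold changes come from the authors' deposited table and are read from its name as SLICK relative to FREE, a direction that could not be checked on single animals. Of the 18 animals the table names, 17 are also named in the TruSeq count table, so whether it rests on exactly the labelled samples is not known.

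The level of the liver marker albumin (ALB), 15.87 log2 CPM (read counts scaled to a common library total), in the authors' deposited table was the highest of all genes. In liver tissue, fewer cells of a type and less RNA per cell cannot be told apart. Errors given with a log2 fold change are standard errors (SE) implied by the authors' F score, and the 95% intervals use the 18.7 degrees of freedom that F and p imply together.

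By the authors' deposited table, 0 of the 41 members passed an adjusted p of 0.05, against 0.501% of all genes. The smallest adjusted p was 0.171 among complement genes and 0.269 among coagulation genes in the authors' deposited table. At a threshold of 0.10 the count was again 0, against 2.77% of all genes. The submitters' processing notes name edgeR, without saying that it made this test. The log2 fold changes were small, from -0.34 (C7) to 0.35 (C8B) in the authors' deposited table. To pass at its own error, a member would have needed a log2 difference of 0.36 to 0.83, with a median of 0.52. For 36 members (16 complement and 20 coagulation genes) the whole implied interval lay within 1.5-fold in either direction.

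At an unadjusted p under 0.05, 9 members were higher in SLICK and 0 were lower in the authors' deposited table. These were 7 complement genes (CFI, C8B, CFB, MBL2, C9, C6 and C4BPB) and 2 coagulation genes (F9 and PROC). The share among complement members was 35% and that among coagulation members 9.52%, while 7.22% of all genes were higher and 8.79% lower by the same criterion. The lists were not tested against each other, because the genes were chosen with results of these data known.

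**Figure D1:**
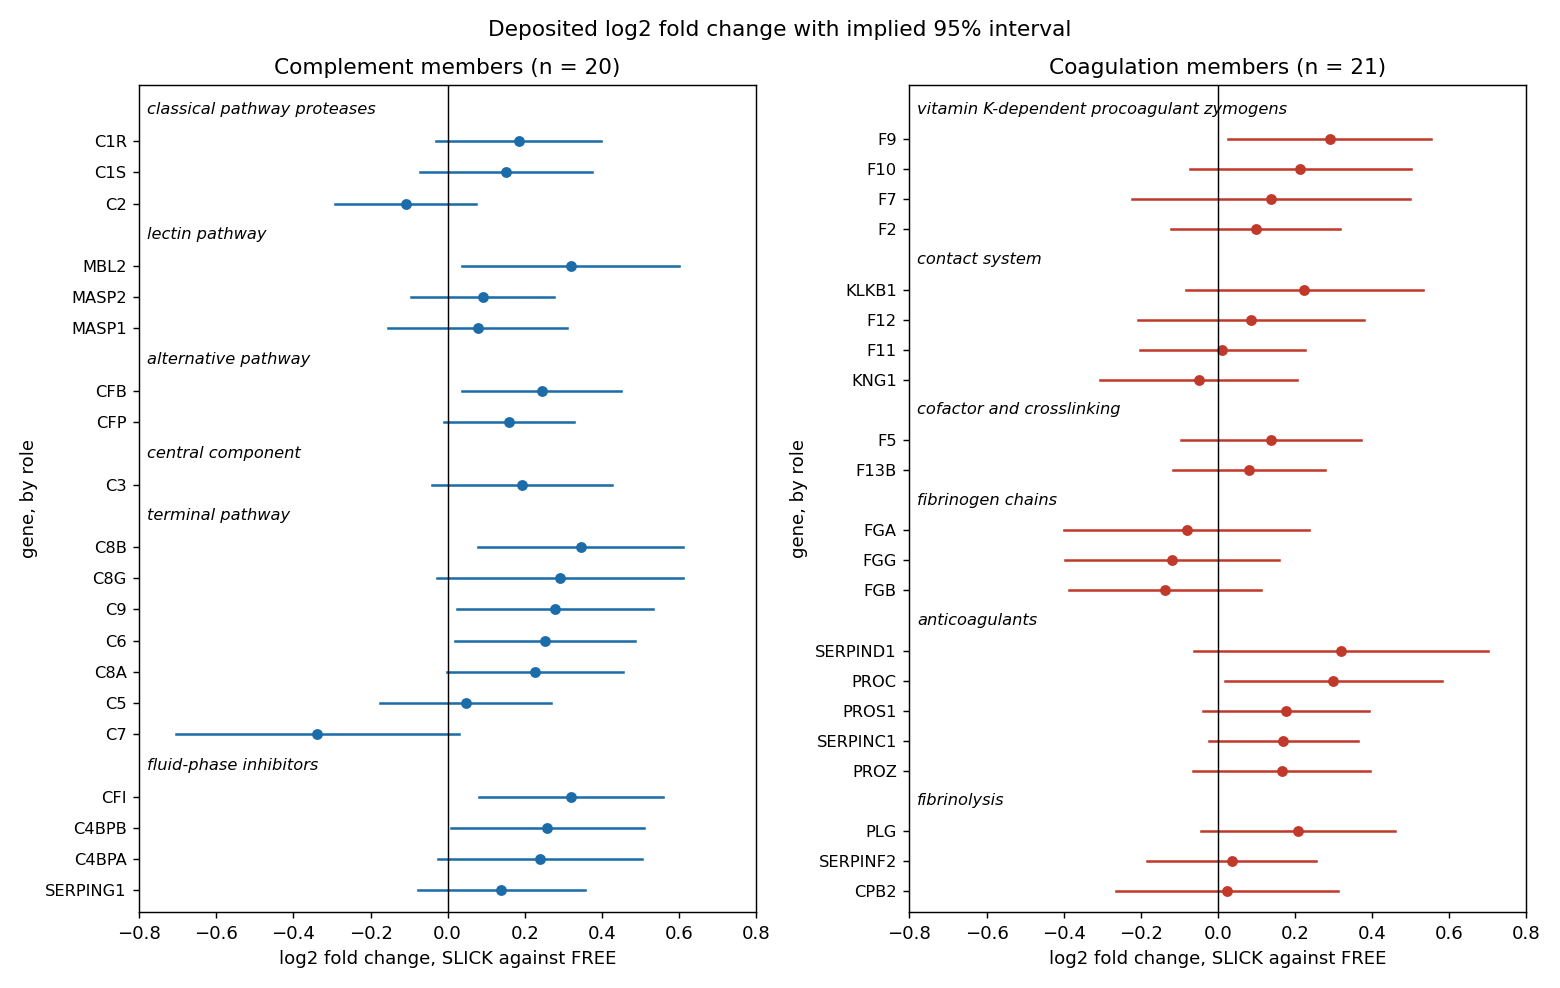
Deposited log2 fold change of SLICK against FREE (x axis, log2 units) for each of the 20 complement and 21 coagulation genes (y axis, grouped by role). Points are the authors' values and bars the implied 95% intervals; 9 bars lie wholly above 0 and none wholly below, and the points of C7, C2, FGB, FGG, FGA and KNG1 lie below 0.

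Across the whole table the fold change rose weakly with the level of a gene (Spearman rank correlation 0.22). Among the members the correlation was -0.05, with 0.08 in the complement list and -0.38 in the coagulation list. Over all genes 48.2% had a log2 fold change above 0, with a median of -0.01, in the authors' deposited table. Members are abundant: the least abundant, CFP, averaged 5.62 log2 CPM, and 34 members were among the 708 most abundant genes (the top of 20 bins of average level). Among these 708 genes, 80.4% were above 0 and 30.5% were higher at an unadjusted p under 0.05 in the authors' deposited table. Of the 17 complement members in that bin, 94.1% were above 0 and 35.3% were higher at the same p. Of the 17 coagulation members there, 76.5% were above 0 and 11.8% were higher. The complement share with an unadjusted p under 0.05 was thus close to that of equally abundant genes, and the coagulation share was below it.

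The median log2 fold change was 0.21 for complement (quartiles 0.13 and 0.26) and 0.14 for coagulation (quartiles 0.02 and 0.21) in the authors' deposited table. Of the complement genes 18 were above 0 and 2 below, and of the coagulation genes 17 were above and 4 below. Centred on genes in the same of 20 bins of level, the planned comparison, the complement median was 0.0823 with 14 of 20 genes above 0. The coagulation median was 0.0192 in that comparison, with 11 of 21 genes above 0. A comparison chosen after seeing the data set each gene against the 200 genes closest in average level. It put the complement median at 0.00 with 10 of 20 genes above 0. On that scale the coagulation median was -0.03, with 7 of 21 genes above 0. For the most abundant members, C3 and CFB among them, most of the 200 genes were less abundant, and other members were among those genes. The complement median thus lay above that of genes of like level by the 20 bins, and about even with it by the 200 closest genes. The difference was not tested.

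**Figure D2:**
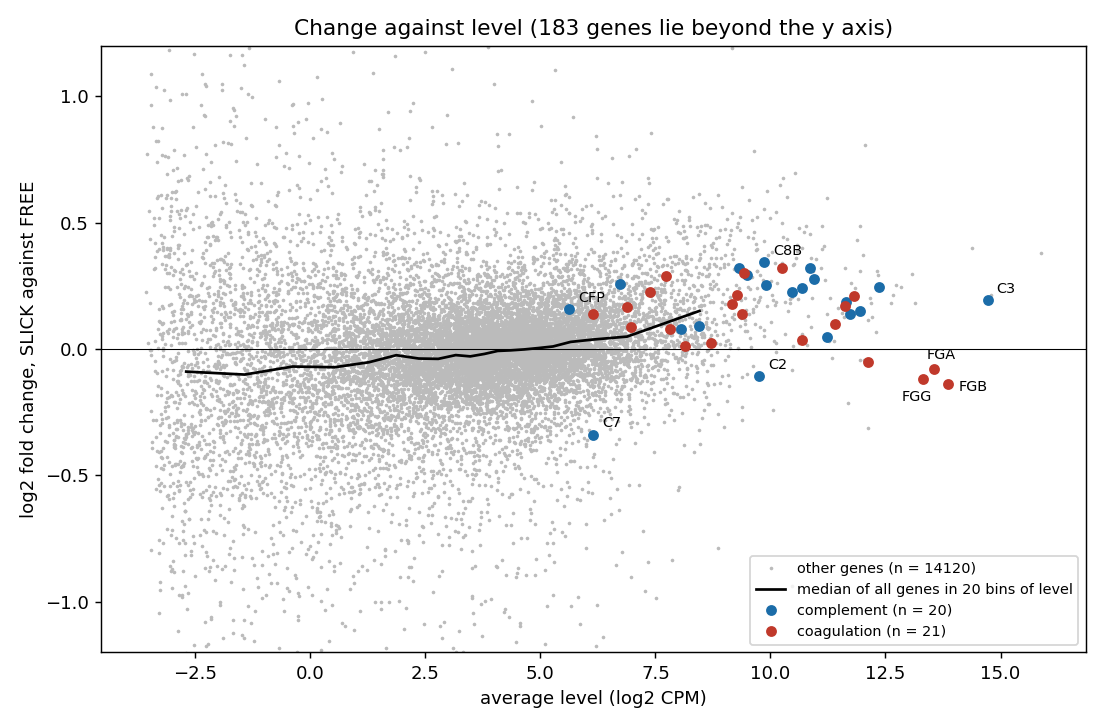
Deposited log2 fold change of SLICK against FREE (y axis) against the average level in log2 CPM (x axis) for complement genes, coagulation genes and all others; the black line joins the medians of 20 bins of level. The line runs from -0.09 in the lowest bin to 0.15 in the highest. The members below it include C2, C7, KNG1 and the fibrinogen chains FGA, FGB and FGG, besides others closer to it.

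Complement members are ordered here from the initiating proteases to the pore. The classical pathway begins with the proteases of the C1 complex, C1R, which activates C1S, and C1S, which cuts C4 and C2. C1R had a log2 fold change of 0.18 (SE 0.10, p = 0.0880) and C1S of 0.15 (SE 0.11, p = 0.170) in the authors' deposited table. C2, the protease part of the classical convertase, lay on the other side of 0 at -0.11 (interval -0.29 to 0.08, p = 0.231) in the authors' deposited table. Its 200 neighbours in level had a median of 0.24, so C2 was 0.34 log2 units below them.

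MBL2, the mannose-binding lectin that starts the lectin pathway, had a log2 fold change of 0.32 (SE 0.13, 1.25-fold, p = 0.0280, adjusted p = 0.249) in the authors' deposited table. The proteases that MBL2 carries were nearer to 0. MASP2, which cuts C4 and C2, had 0.09 and MASP1 0.08 (p = 0.315 and 0.491) in the authors' deposited table.

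In the alternative pathway, factor B (CFB) supplies the protease of the convertase and properdin (CFP) stabilises it. CFB had a log2 fold change of 0.24 (SE 0.10, 1.18-fold, p = 0.0227, adjusted p = 0.227) in the authors' deposited table. The value for CFP, which leukocytes are known to make, was 0.16 (SE 0.08, p = 0.0614) in the authors' deposited table. C3, on which all pathways meet, had 0.19 (SE 0.11, p = 0.0983) in the authors' deposited table. C3 averaged 14.72 log2 CPM and was the member with the most reads.

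The terminal pathway held both ends of the range of members. C8B, the beta chain of C8, had the largest value, 0.35 (SE 0.13, 1.27-fold, interval 1.06-fold to 1.53-fold, p = 0.0136, adjusted p = 0.186) in the authors' deposited table. The other C8 chains were similar, with 0.23 for C8A (p = 0.0511) and 0.29 for C8G (p = 0.0709) in the authors' deposited table. C9, which polymerises into the pore, had 0.28 (SE 0.12, p = 0.0339, adjusted p = 0.274) and C6 0.25 (SE 0.11, p = 0.0350, adjusted p = 0.277) in the authors' deposited table. C5, whose cleavage starts pore assembly, was near 0 at 0.05 (interval -0.18 to 0.27) in the authors' deposited table.

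C7, which anchors the growing complex in the membrane, had a log2 fold change of -0.34 (SE 0.18, interval -0.71 to 0.03, p = 0.0690, adjusted p = 0.372) in the authors' deposited table. It was also the member with the lowest level per length, 18.3 CPM per kb. C7 is known to be made by mesenchymal cells besides hepatocytes. The list of stellate cell and fibroblast markers had a median of -0.15 in the authors' deposited table, with 2 of 9 genes above 0. LUM had -0.54, COL1A2 -0.38 and COL1A1 -0.31 there, while ACTA2 (-0.05) and DES (-0.02) were near 0. The 2 above 0 were RGS5 (0.26) and PDGFRB (0.13). Of the 9, 2 (LUM and COL1A2) had an unadjusted p under 0.05 and 0 passed an adjusted p of 0.05 in that table, and their part in the value of C7 was not tested.

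Fluid-phase inhibitors of complement were all above 0. Factor I (CFI), which cuts C3b and C4b apart, had the smallest p of all members, with a log2 fold change of 0.32 (SE 0.11, 1.25-fold, p = 0.0113, adjusted p = 0.171) in the authors' deposited table. The chains of the C4b-binding protein, a cofactor of factor I, had 0.24 (C4BPA, p = 0.0725) and 0.26 (C4BPB, p = 0.0437) in the authors' deposited table. SERPING1, the inhibitor of C1R, C1S, the MASPs and kallikrein, had 0.14 (p = 0.195) in the authors' deposited table.

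Among coagulation members, the vitamin K-dependent zymogens F2, F7, F9 and F10 were all above 0. F9 of the intrinsic pathway had the smallest p of the coagulation list, with 0.29 (SE 0.13, 1.22-fold, p = 0.0321, adjusted p = 0.269) in the authors' deposited table. F10, which makes thrombin, had 0.21 (p = 0.134), and F7, the partner of tissue factor, 0.14 (p = 0.433) in the authors' deposited table. Prothrombin (F2) had 0.10 (p = 0.357) in the authors' deposited table.

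Anticoagulants were above 0 in 5 of 5 cases, with a median of 0.18. Protein C (PROC), which inactivates coagulation cofactors, had 0.30 (SE 0.13, 1.23-fold, p = 0.0385, adjusted p = 0.288) in the authors' deposited table. Its cofactor protein S (PROS1), which also binds the beta chain of the C4b-binding protein, had 0.18 (SE 0.10, p = 0.102) in the authors' deposited table. Antithrombin (SERPINC1) had 0.17 (SE 0.09, p = 0.0817) and heparin cofactor SERPIND1 0.32 (SE 0.18, p = 0.0959) in the authors' deposited table. SERPIND1 had the largest error of all members, so a value as high as that of CFI came with a higher p. PROZ, a cofactor in the inhibition of factor X, had 0.17 (p = 0.148) in the authors' deposited table.

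Of the 12 role groups, fibrinogen was the only one with all of its genes below 0. FGB had a log2 fold change of -0.14 (interval -0.39 to 0.11, p = 0.263), FGG of -0.12 (interval -0.40 to 0.16, p = 0.384) and FGA of -0.08 (interval -0.40 to 0.24, p = 0.602) in the authors' deposited table. None of these intervals lay apart from 0. The 200 genes closest in level to each chain had a median of 0.24. The chains are near the top of all levels, so most of these genes were less abundant. The difference from them was not tested. Per length the fibrinogen chains were among the 4 most abundant members, with 5509 (FGB), 5279 (FGG) and 3362 (FGA) CPM per kb, and C3 lay among them with 4470 CPM per kb.

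Of the contact system genes 3 of 4 were above 0, with a median of 0.05, and of the fibrinolysis genes 3 of 3, with a median of 0.04, in the authors' deposited table. Prekallikrein (KLKB1) had 0.22 (p = 0.142), F12 0.09, F11 0.01 and the kininogen KNG1 -0.05 in the authors' deposited table. Plasminogen (PLG) had 0.21 (SE 0.12, p = 0.0981), the plasmin inhibitor SERPINF2 0.04 and CPB2, which protects fibrin from plasmin, 0.02 in the authors' deposited table. The cofactor F5 had 0.14 and F13B, the carrier subunit of the fibrin-crosslinking factor, 0.08 in the authors' deposited table. The p values of F12, F11, KNG1, SERPINF2, CPB2, F5 and F13B ran from 0.231 to 0.908 in the authors' deposited table.

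**Figure D3:**
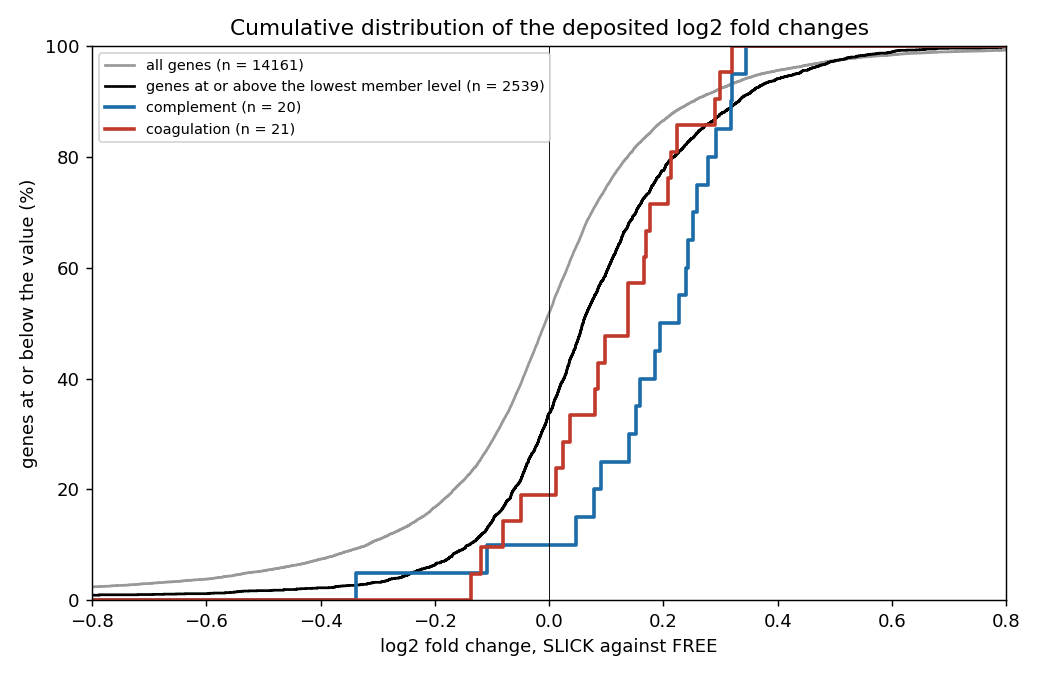
Share of genes (y axis, %) at or below each deposited log2 fold change of SLICK against FREE (x axis) for all 14161 genes, the 2539 genes at or above the lowest member level, the 20 complement genes and the 21 coagulation genes. Above 0 were 90% of complement genes, 81% of coagulation genes, 66.3% of the genes at or above the lowest member level and 48.2% of all genes, and the 708 most abundant genes, not drawn, had 80.4%.

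Levels per length spanned a wide range. They were computed as the average CPM divided by the deposited gene length in kb, and their spread over animals was not available for the reason given above. After fibrinogen and C3, the next in order were SERPING1 (2090 CPM per kb), CFB (2075 CPM per kb) and SERPINC1 (1729 CPM per kb). The lowest after C7 were CFP (26.6 CPM per kb), MASP1 (43.6 CPM per kb) and F7 (48.4 CPM per kb). Summed over genes, the average levels of the members came to 11.5% of the CPM total, 5.70% from complement and 5.80% from coagulation.

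Of the 41 members, 40 lie on 19 assembled chromosomes of ARS-UCD1.2, and F9 is on an unplaced scaffold. Of these genes, 20 sit in 9 groups of neighbours less than 1 Mb apart. In 8 of the 11 neighbouring pairs both genes had the same sign in the authors' deposited table, and since 35 of the 41 members were above 0, like signs would be frequent in any pairing of them. The chains of the C4b-binding protein lie side by side on chromosome 16 (C4BPB from 4913856 to 4925086, C4BPA from 4932453 to 4979207, both on the + strand) and differed by 0.02 log2 units. C1R and C1S on chromosome 5 differed by 0.03 and C8B and C8A on chromosome 3 by 0.12 log2 units. The zymogens F7 and F10 and the cofactor PROZ follow each other on chromosome 12 within 86491628 to 86525634, all on the + strand, and were all above 0. The fibrinogen genes lie together on chromosome 17 (FGG from 2840842 to 2848781, FGA from 2859932 to 2868867, FGB from 2894488 to 2932611).

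In other neighbouring pairs 1 gene lay below 0 or near it. CFB (chromosome 23, 27415355 to 27421377) lies 432 bases from C2 (27421810 to 27433479) on the same - strand, and the values were 0.24 and -0.11 in the authors' deposited table. KLKB1 and its paralog F11 lie 3809 bases apart on chromosome 27, with 0.22 and 0.01 in the authors' deposited table. MASP1 and KNG1 on chromosome 1, with 6 coding genes between them in RefSeq's ARS-UCD2.0 annotation, had 0.08 and -0.05 in the authors' deposited table. These differences within pairs were not tested, since the values of single animals were not used.

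Chromosome 20 carries PRLR and 3 terminal complement genes. C6 (33315988 to 33442085, + strand), C7 (33535937 to 33593157, - strand) and C9 (35077205 to 35144035, + strand) lie 5.53, 5.38 and 3.83 Mb from PRLR. C6 and C7 are the neighbouring pair with the widest difference, 0.59 log2 units, with C6 and C9 above 0 and C7 below. Of the 62 other genes of the table within 10 Mb of PRLR, C6, C7 and C9 included, 27 were above 0, the median was -0.03 and 0 passed an adjusted p of 0.05, by the authors' deposited table. At an unadjusted p under 0.05, 8 of the 62 were higher and 6 lower, against 7.22% and 8.79% of all genes. PRLR itself had -0.05 (p = 0.791) in the authors' deposited table.

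**Figure D4:**
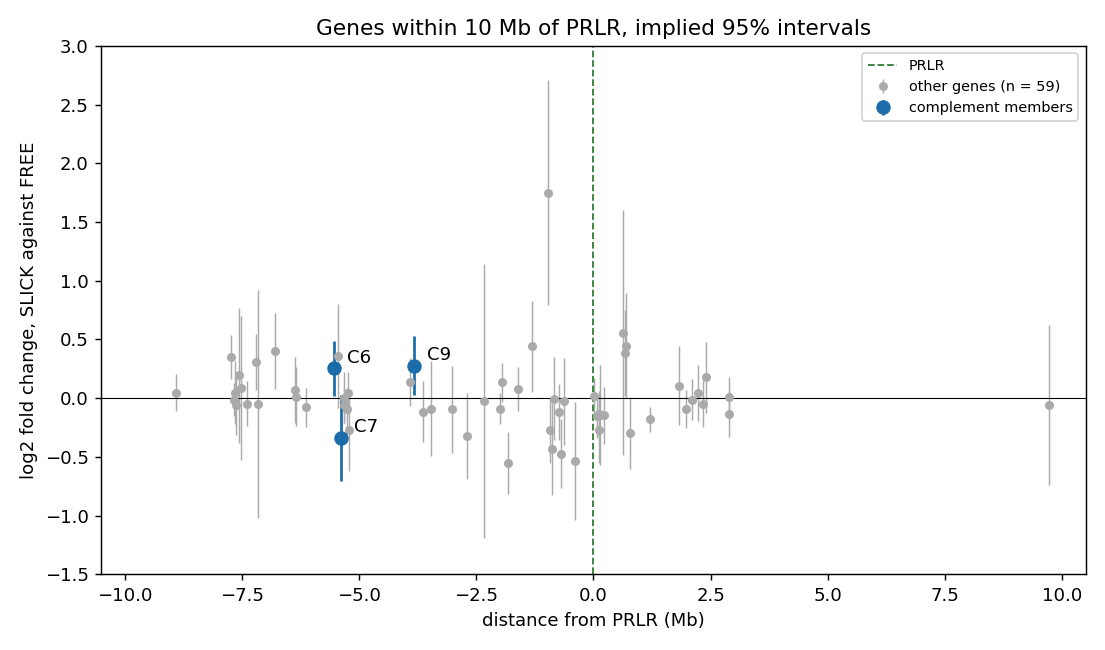
Deposited log2 fold change of SLICK against FREE (y axis) for the 62 genes within 10 Mb of PRLR, by distance from it in Mb (x axis); bars are implied 95% intervals and the dashed line marks PRLR. C6 and C9 lie above 0 and C7 below it.

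Other genes of the same cascades were taken from fixed lists. Of 30 further complement genes 26 were in the authors' deposited table, with a median of 0.07, and 0 passed an adjusted p of 0.05. At an unadjusted p under 0.05, 2 were higher (7.69%, near the 7.22% of all genes) and 3 lower (8.79% of all genes). The higher ones were CPN1, a carboxypeptidase subunit that inactivates complement fragments, with 0.33, and vitronectin (VTN) with 0.25 in the authors' deposited table. The lower ones were the receptors of the small fragments of C5 and C3: C5AR1 had -0.76 (p = 0.00584, adjusted p = 0.129), C5AR2 -0.61 (p = 0.0113) and C3AR1 -0.28 (p = 0.0199) in the authors' deposited table. These receptors averaged 2.09 (C5AR1), 0.17 (C5AR2) and 4.58 (C3AR1) log2 CPM, less than any member. They are known from myeloid cells. Receptors of the surface-bound fragments in the list had both signs in the authors' deposited table. CR2 had 0.37 and ITGAX 0.09, while ITGAM had -0.17 and VSIG4 -0.25, with p from 0.105 to 0.636. Neutrophil markers had a median of -0.40 with 0 of 5 above 0, and Kupffer cell and macrophage markers 0.13 with 7 of 10 above 0, in the authors' deposited table. The neutrophil markers had a median level of only 1.25 log2 CPM. The Kupffer cell list shares C1QA, C1QB and C1QC, all above 0, and VSIG4 with the further complement genes. Its only gene with an unadjusted p under 0.05 was CD68, at -0.28 (p = 0.0391). The part of either marker list in the receptor values was not tested.

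Of 27 further coagulation symbols 25 were in the authors' deposited table, 1 of them (SERPINA5) as 2 genes, and 0 of these 26 genes passed an adjusted p of 0.05. Their median was -0.18, with 8 above 0, and at an unadjusted p under 0.05, 3 were higher and 4 lower, against 7.22% and 8.79% of all genes. The urokinase receptor PLAUR had -1.03 (SE 0.27, p = 0.00122, adjusted p = 0.0847) and ANXA2, a cell surface receptor for plasminogen, -0.84 (SE 0.23, p = 0.00141, adjusted p = 0.0876) in the authors' deposited table. SERPINA5, the protein C inhibitor, had 0.31 (p = 0.0105) for the less abundant of its genes in the authors' deposited table. The more abundant SERPINA5 gene had 0.24 (p = 0.0161) there. ANXA2 and PLAUR are expressed by many cell types besides hepatocytes. Markers of bile duct epithelium had 0 of 8 above 0 with a median of -0.75 in the authors' deposited table. KRT19 (-0.03) and ANXA4 (-0.05) among them were near 0. Of the 8, 5 were lower at an unadjusted p under 0.05, against 8.79% of all genes, and 0 passed an adjusted p of 0.05. The part of these markers in the ANXA2 and PLAUR values was not tested.

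A further list joined genes of the vitamin K cycle, which equips the zymogens with their calcium-binding residues, with genes of factor processing and secretion (FURIN, LMAN1 and MCFD2). Its median was 0.10 over 8 genes in the authors' deposited table, and 0 passed an adjusted p of 0.05. At an unadjusted p under 0.05, 2 were higher and 0 lower, against 7.22% and 8.79% of all genes. The carboxylase GGCX had 0.21 (p = 0.0266) and the epoxide reductase VKORC1 0.20 (p = 0.0466) in the authors' deposited table. Transcription factors and signalling genes that control hepatic plasma proteins had a median of 0.02 over 15 genes, again with 0 past the adjusted threshold, in the authors' deposited table. At an unadjusted p under 0.05, 2 were higher (IL6R and NR3C1) and 2 lower (SOCS3 and CEBPB), against 7.22% and 8.79% of all genes. The interleukin-6 receptor gene IL6R had 0.35 (p = 0.00397, adjusted p = 0.113), its feedback inhibitor SOCS3 -0.68 (p = 0.00471, adjusted p = 0.118) and the acute phase factor CEBPB -0.42 (p = 0.0303) in the authors' deposited table.

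The fixed list of other plasma proteins shares ALB, TF, TTR, SERPINA1 and APOA1 with the hepatocyte markers and holds C1QTNF3, which averaged -3.23 log2 CPM. Over 24 genes of the authors' deposited table their median was 0.19, with 18 above 0 and 0 past an adjusted p of 0.05, close to the complement median of 0.21. FETUB, a protease inhibitor, had -0.79 (p = 5.66e-04), ITIH1 of the inter-alpha-trypsin inhibitors 0.43 (p = 0.00153) and transferrin (TF) 0.40 (p = 0.00954) in the authors' deposited table. The adjusted p of these 3 ran from 0.0645 to 0.161, and at an unadjusted p under 0.05, 5 of the 24 were higher (20.8%) and 1 lower, against 30.5% higher among the 708 most abundant genes and 7.22% of all genes. Hepatocyte markers had a median of 0.27, with 10 of 11 above 0, in the authors' deposited table. Among the 708 most abundant genes 80.4% were above 0. Centred on genes in the same bin of level, the marker median was 0.12, with 10 of 11 above 0. Against the 200 genes closest in level the marker median was 0.05, with 7 of 11 above 0. The part of these markers in the values of the members was not tested.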

How the data were processed

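Liver RNA was sequenced from TruSeq (18 samples) and SMARTer (16 samples) libraries, per the labels. Tools named in the submitters' processing notes, with no role given, are edgeR, Subread, featureCounts and HISAT2 2.1.0, and the build is ARS-UCD1.2. Gene positions come from the SMARTer count table, made with featureCounts 1.6.2 on Ensembl release 100 models, per the file headers. In 4 tables, 70 columns of per-library values match no sample label and were not used.

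For each gene the authors deposited the p-value with its adjusted value, the F score, the log2 fold change and the mean log2 CPM, per the file headers. Whether that model held a term for sire is a point not given in the sources used here. Of 14246 rows, 85 repeat a gene and 14161 genes were kept. The SE is the size of the log2 fold change divided by the square root of F, and its interval uses t on the 18.7 degrees of freedom that F and p imply.

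The planned count fits, S2 against S1 included, could not be made without library groups, so the deposited p-values stand in. Members and lists were chosen with earlier results of these data known. Full values go to the 6 members per list with the smallest p, neighbours within 1 Mb and members within 10 Mb of PRLR, and to 3 genes per other list; 1 gene that this rule took is not reported here. Python 3.11.15, numpy 2.4.6, pandas 2.3.3, scipy 1.17.1 and matplotlib 3.10.9 were used. All 41 symbols matched RefSeq's ARS-UCD2.0 table, used only for genes between neighbours.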

Additional observations from a re-analysis of the deposited data

How the results depend on the processing

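The count of members past the threshold was 0 for complement and 0 for coagulation under each adjustment tried. These were Benjamini-Hochberg over the 14161 genes kept or over all rows, a threshold of 0.10, and floors of 0 and 4 log2 CPM, where the smallest adjusted p was 0.132 for complement and 0.209 for coagulation. Centred on genes of the same average level (20 bins) the complement median moved from 0.21 to 0.0823 and the coagulation median from 0.14 to 0.0192. Centred on the 200 genes closest in level, an alternative chosen after seeing the data, it moved to 4.39e-04, and the coagulation median turned from 0.14 to -0.0272. Centring on the median of all genes, a floor of 4 log2 CPM, the mean, the weighted mean and SERPING1 in the coagulation list kept the direction of both medians, from 0.16 to 0.23 for complement and from 0.10 to 0.15 for coagulation. No paired analysis was possible because the library columns carry no replicate numbers; leaving out libraries and other count normalizations were not run for the same reason. At the median error, a member needed a difference of 0.52 log2 units to pass, which limits what these libraries could show.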

Other observations

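Both chains of the C4b-binding protein, its partner PROS1 and the protease CFI that it assists were above 0, at 0.24 (C4BPA), 0.26 (C4BPB), 0.18 (PROS1) and 0.32 (CFI) log2 units in the authors' deposited table. None of them passed an adjusted p of 0.05, and relative to the 200 genes closest in level they stood at 0.01, 0.23, -0.03 and 0.09 log2 units. C4BPB was thus the farthest above its level of all members, and C7 the farthest below, at -0.38 log2 units. On the same scale FGB stood at -0.37, FGG at -0.35, C2 at -0.34, FGA at -0.32 and KNG1 at -0.29 log2 units. For the fibrinogen chains, KNG1, CFI and C4BPA, most of the 200 genes were less abundant than the member itself. These members were singled out after their values were seen.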
